A study of Homo sapiens with 8 samples.

Results

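The genes described here are 38 genes of the endoplasmic reticulum (ER) that fold, sense, translocate and degrade secreted proteins. They were matched by symbol, and all 38 were found among the 18564 genes of the deposited table. By role they are 11 chaperones and co-chaperones, 3 disulphide isomerases, 2 lectin chaperones, 10 genes of ER-associated degradation (ERAD), 6 stress sensors and their processing proteases, and 6 genes of translocation and signal peptide cleavage. A plasma cell secretes antibody in bulk, and each chain enters the ER through the Sec61 channel, folds with the help of BiP, GRP94, calreticulin and the disulphide isomerases, and, if it fails, is returned to the cytosol for the proteasome. When unfolded protein accumulates, the membrane sensors IRE1, PERK and ATF6 start the unfolded protein response, in which IRE1 splices the mRNA of XBP1 and both XBP1 and ATF6 switch on chaperone and ERAD genes. Bortezomib blocks the proteasome, the last step of ERAD, and myeloma cells are known for their dependence on this pathway.

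RNA was sequenced from LP-1, a human multiple myeloma cell line, in 4 conditions with 2 libraries each. Wild-type (WT) cells received vehicle (DMSO by title, though the treatment label reads untreated) or 25 nM SI-2 for 24 h, SI-2 being a small-molecule inhibitor of the coactivator SRC-3. Bortezomib-resistant (BR) cells, which had been cultured with bortezomib for 2 months, received vehicle or SI-2 in the same way, and whether they derive from a single clone was not given. The labels number the 2 libraries of each condition but name no shared culture or day, so p-values measure the spread between these libraries, which may be technical. Below, values of a gene follow the order WT vehicle, WT SI-2, BR vehicle and BR SI-2, with replicate 1 before replicate 2 in each.

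Depth hardly varied, with 17997771 to 18570027 estimated counts a library. Of 10 plasma cell markers, 8 were above 1 FPKM (fragments scaled to gene length and library size) in at least 1 library, JCHAIN from 2456 to 3904 FPKM. Of 5 B-cell markers only BLK was over 1 FPKM, at 9.87 to 18.3 FPKM in all 8 libraries, and MS4A1 was at most 0.03 FPKM. The monocyte gene LYZ stood at 1.6 to 3.17 FPKM and the T-cell gene CD3G at up to 1.09 FPKM. In 1 library, replicate 2 of BR SI-2, the fibroblast genes COL1A1, COL1A2 and DCN stood at 9.84, 1.56 and 3.74 FPKM, against at most 0.07, 0.04 and 0.03 FPKM in the other 7. In the replicate 2 library of BR vehicle these 3 genes summed to 0.09 FPKM. Whether the fibroblast transcripts bear on the levels of the ER genes was not tested. In bulk RNA, fewer cells of a type and less RNA per cell cannot be told apart.

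Promoter letters are shown first because XBP1 and ATF6 are known to act through the ER stress response element, or ERSE, which reads CCAAT, any 9 bases, then CCACG. A shorter form, ERSE-II, reads ATTGG, any 1 base, then CCACG. A RefSeq window of 250 bases before to 50 bases after an annotated start (GRCh38.p14) was listed for 35 of the 38 genes, and not for PDIA3, DERL1 and DERL3. On either strand, ERSE letters stood in a window of 6 genes (HSPA5, HSP90B1, CALR, CANX, CRELD2 and PDIA6), or 17.1% of the 35, whereas 0.0916% of all 27305 genes with a window held them (0.0769% of 35116 windows). ERSE-II letters stood in 3 genes (HERPUD1, SDF2L1 and HYOU1), or 8.57%, against 0.0696% of all genes with a window (0.0541% of windows). The core of another element, UPRE, with the letters TGACGTGG, stood in DNAJC10, SSR3 and HYOU1, or 8.57%, against 0.927% of all genes with a window (0.729% of windows); in HYOU1 its letters overlap an ERSE-II match. ERSE was first described in promoters of ER chaperones, so its presence here is no independent finding. The stretches below lie wholly before the annotated start, run 5′ to 3′ on the gene's strand, and have the ERSE or ERSE-II letters in capitals, with HSP90B1 and HYOU1 carrying 2 matches each.
HSPA5 (chr9:125241376-125241424, minus strand): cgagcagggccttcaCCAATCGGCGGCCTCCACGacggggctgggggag
HSP90B1 (chr12:103930201-103930354, plus strand): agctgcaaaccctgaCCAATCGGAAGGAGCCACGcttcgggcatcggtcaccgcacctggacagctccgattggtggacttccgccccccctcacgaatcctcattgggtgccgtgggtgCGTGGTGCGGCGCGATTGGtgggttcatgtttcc
CALR (chr19:12938369-12938417, plus strand): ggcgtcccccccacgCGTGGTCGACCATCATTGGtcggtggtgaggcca
CRELD2 (chr22:49918539-49918587, plus strand): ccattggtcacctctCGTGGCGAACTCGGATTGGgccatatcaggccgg
HERPUD1 (chr16:56932010-56932050, plus strand): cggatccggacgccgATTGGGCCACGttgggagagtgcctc
SDF2L1 (chr22:21642099-21642139, plus strand): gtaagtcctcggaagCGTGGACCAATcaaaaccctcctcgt
HYOU1 (chr11:119057259-119057405, minus strand): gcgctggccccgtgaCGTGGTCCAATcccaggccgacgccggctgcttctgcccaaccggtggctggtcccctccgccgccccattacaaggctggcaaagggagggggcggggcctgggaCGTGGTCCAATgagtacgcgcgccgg

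The ER genes were abundant in LP-1 cells. By mean FPKM over the 8 libraries, 29 of the 38 were in the top 10% of all genes, and 18 were at 100 FPKM or more. MZB1, a B-lineage co-chaperone of GRP94, was the highest at 444 ± 136 FPKM (SD, n = 8). It was followed by CALR, which encodes calreticulin, at 421 ± 130 FPKM and by CANX, which encodes calnexin, at 407 ± 40.5 FPKM. PDIA6 stood at 397 ± 58.7 FPKM, HSP90B1 (GRP94) at 395 ± 85.7 FPKM and HERPUD1, a scaffold of the ERAD ligase, at 303 ± 82.3 FPKM. The lowest were DERL2 at 17.3 ± 2.18 FPKM, DNAJC10 at 17.1 ± 2.76 FPKM and MBTPS2, a protease that releases ATF6 from the membrane, at 6.47 ± 0.757 FPKM. Of the 37 pairs of neighbours in this order, only DNAJC10 and MBTPS2 had 8 libraries that did not overlap, so that the order of most neighbours lies within their spread.

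**Figure D1:**
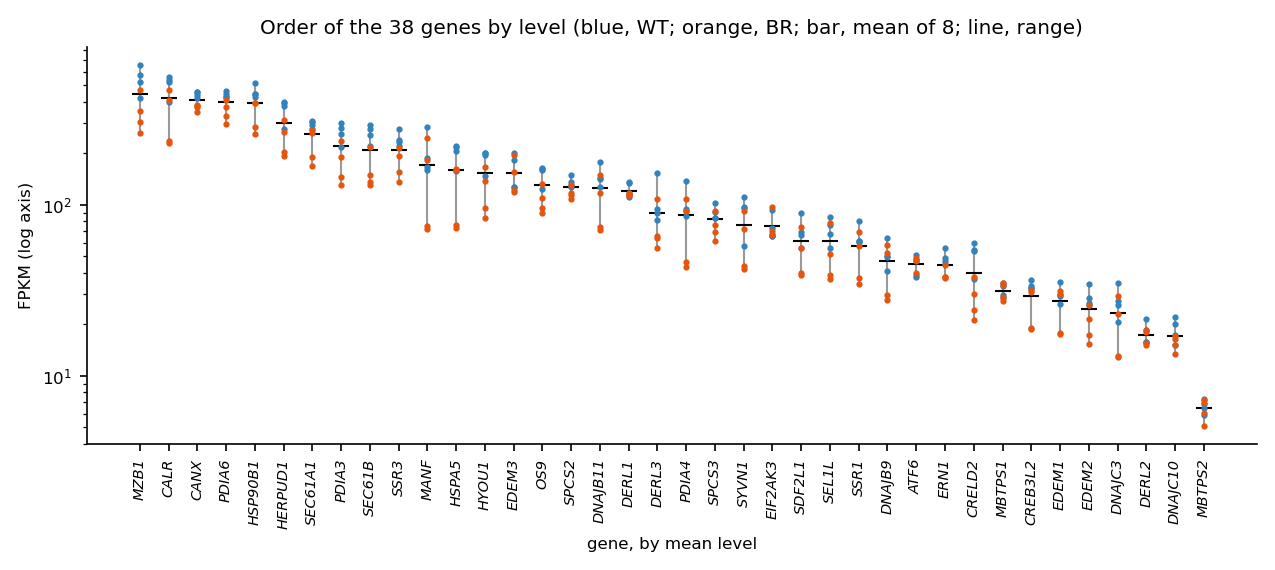
FPKM of the 38 ER genes on a log axis, in order of the mean of 8 libraries (short bar), with WT libraries in blue and BR libraries in orange and the range as a line. MZB1 stands highest at a mean of 444 FPKM and MBTPS2 lowest at 6.47 FPKM, and the lowest points of most genes are BR libraries.

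The 38 genes did not vary alike. The highest library exceeded the lowest by 2 times or more for 20 genes and by less than 1.5 times for 8. MANF, a secreted ER stress protein, had the widest range at 3.98 times, followed by PDIA4 at 3.17 and HSPA5 (BiP) at 3.02 times. DERL1 had the narrowest range at 1.23 times, with MBTPS1 at 1.27 and CANX at 1.3 times. The lowest FPKM of 29 genes fell in replicate 2 of BR SI-2, and that of 4 others in replicate 2 of BR vehicle. Replicate 1 of WT vehicle held the highest FPKM of 27 genes. How many of all genes had their lowest or highest FPKM in these libraries is not given here, so these counts describe the 38 only. On normalised counts (CPM, counts scaled to library size, with the trimmed mean of M-values, TMM), the median of the 38 genes relative to the mean of the 4 WT libraries was 0.21 and -0.01 on the log2 scale in WT vehicle, -0.24 and -0.05 in WT SI-2, -0.07 and -0.85 for BR vehicle and -0.27 and -0.92 in BR SI-2. The 38 genes together took 2.04% and 1.82% of all counts in WT vehicle, 1.66% and 1.78% in WT SI-2, 1.69% and 1.18% for BR vehicle and 1.55% and 1.10% in BR SI-2. Both measures thus placed the replicate 2 libraries of BR below the other 6, while the replicate 1 libraries of BR lay among or next to those of WT cells.

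**Figure D2:**
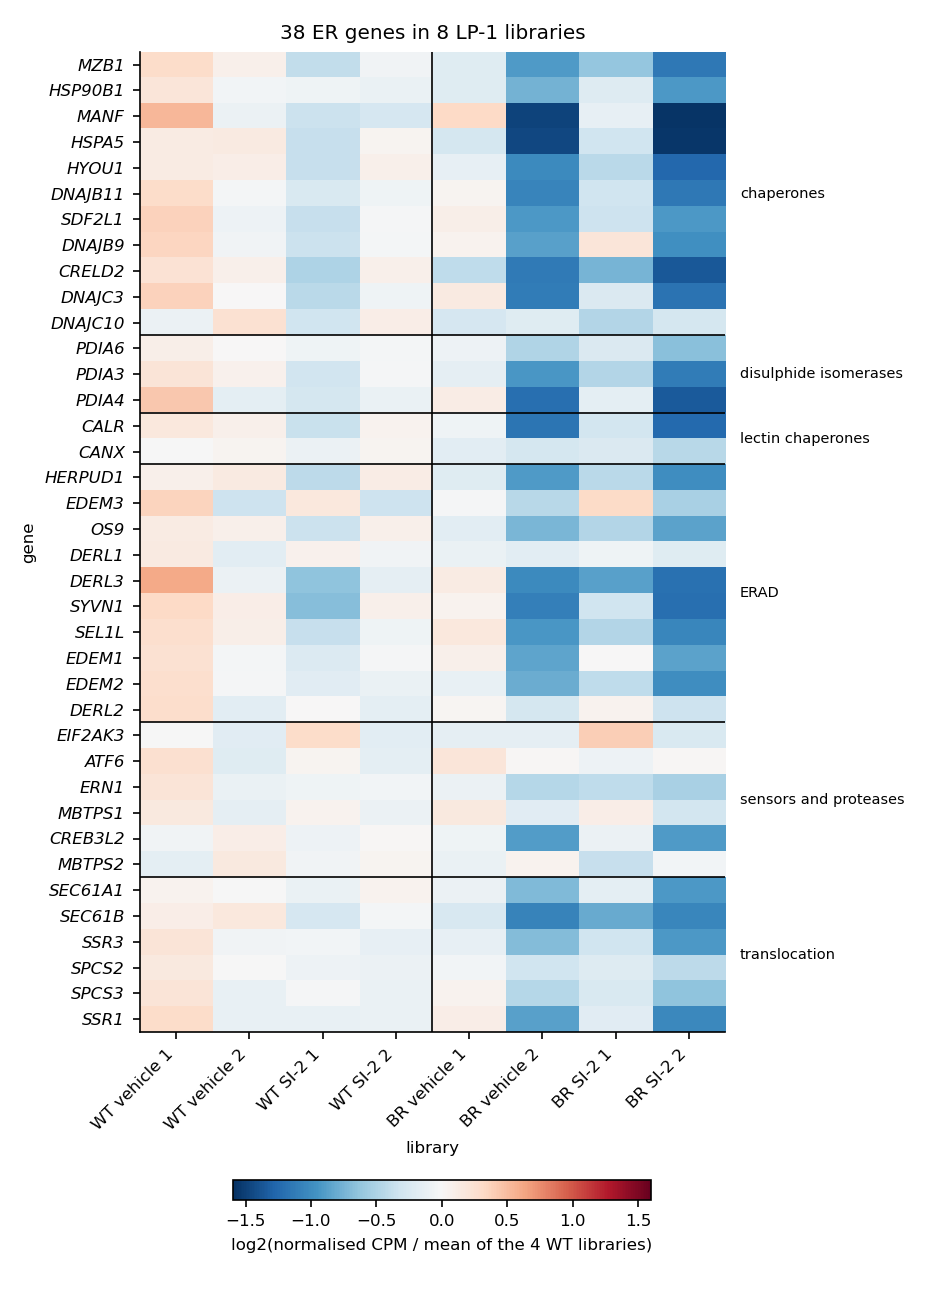
Normalised CPM of each ER gene (rows, by role) in each library (columns), as the log2 ratio to the mean of the 4 WT libraries, from blue (lower) to red (higher). The columns of BR vehicle 2 and BR SI-2 2 are blue in nearly every row outside the sensors, with medians of -0.85 and -0.92.

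BR cells were compared with WT cells over both treatments, 4 libraries against 4, to ask how the ER genes differ in resistant cells. The log2 fold change was below 0 for 37 of the 38 genes, with a median of -0.47, against 0.00 for the median of all 13520 genes tested. None of the 38 passed an adjusted p of 0.05 in edgeR's quasi-likelihood test (Benjamini-Hochberg over all genes; the smallest was 0.121), where 0.362% of all genes did. At an unadjusted p under 0.05, 19 of the 38 were lower in BR cells and none was higher, where 8.08% of all genes tested were lower. Of these 19, DESeq2 called CANX, CRELD2 and SEC61B, among 414 genes that it called in all, against 49 in edgeR. On normalised counts, the 4 BR libraries lay below the 4 WT libraries without overlap in 4 genes (HSP90B1, PDIA6, CANX and SSR3), where 4.34% of genes did so. For the other 34 genes the groups overlapped on this scale. On the FPKM scale, without TMM scaling, SEC61A1, SEC61B, EDEM2, ERN1 and CREB3L2 did not overlap either, all by narrow margins between a BR replicate 1 library and the lowest WT library.

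Among the chaperones, 6 of 11 were lower at an unadjusted p under 0.05, with a median log2 fold change of -0.49 over the 11. HSPA5 is the HSP70 of the ER and the most general chaperone there. Its levels were 218, 221, 158 and 206 FPKM in WT cells and 162, 76.6, 159.9 and 73.2 FPKM in BR cells. The BR replicate 2 libraries were thus far below the rest, and the log2 fold change of BR over WT was -0.78 ± 0.28 (SE; edgeR adjusted p = 0.252). CRELD2, a secreted ER stress protein, was at 59.6, 53.9, 37.0 and 54.1 FPKM in WT cells and at 37.96, 24.2, 30.2 and 21.2 FPKM in BR cells. Of the BR libraries only replicate 1 of BR vehicle reached above the lowest WT library, and the log2 fold change was -0.87 ± 0.21 (adjusted p = 0.128 in edgeR). MZB1 was at 657, 572, 419 and 522 FPKM in WT cells and at 467, 304, 352 and 262 FPKM in BR cells (log2 fold change -0.67 ± 0.20, edgeR adjusted p = 0.201). HSP90B1 did not overlap between the lines, with 426 to 517 FPKM in WT and 260.0 to 393 FPKM in BR libraries (log2 fold change -0.48 ± 0.16, edgeR adjusted p = 0.231). HYOU1, the exchange factor of BiP, averaged 187 ± 26.6 FPKM in WT and 121 ± 38.4 FPKM in BR cells (SD, n = 4 each), a log2 fold change of -0.65 ± 0.22. DNAJC10, a disulphide reductase with a J domain, differed by -0.30 ± 0.12. The 5 other chaperones had an unadjusted p above 0.05; among them MANF stood at 286, 188, 160.1 and 165 FPKM in WT cells and at 245, 74.7, 182 and 72.0 FPKM in BR cells, so that both BR replicate 1 libraries lay within the WT range and both replicate 2 libraries below it.

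The folding enzymes for glycoproteins and disulphides had log2 fold changes below 0 in BR cells, none past the adjusted threshold. CALR was at 560.1, 537, 402 and 525 FPKM in WT cells and at 472, 236, 411 and 228 FPKM in BR cells (log2 fold change -0.60 ± 0.25, edgeR adjusted p = 0.311). CANX, its membrane-bound relative, was at 436, 456, 423 and 456 FPKM in WT cells and at 385, 379.9, 374 and 349 FPKM in BR cells. Its groups did not overlap, and unlike CALR its BR replicates were close to each other (log2 fold change -0.28 ± 0.08, edgeR adjusted p = 0.191). PDIA3, the disulphide isomerase that works with both lectins, averaged 265 ± 35.9 FPKM in WT and 175 ± 47.5 FPKM in BR cells (SD, n = 4 each; log2 fold change -0.62 ± 0.20). PDIA6 differed by -0.35 ± 0.12, and PDIA4 had an unadjusted p above 0.05.

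In ERAD, all 10 genes had a log2 fold change below 0 and 3 had an unadjusted p under 0.05. HERPUD1 was at 379, 401, 277 and 391 FPKM in WT cells and at 311, 202, 266 and 194 FPKM in BR cells (log2 fold change -0.59 ± 0.19, edgeR adjusted p = 0.213). OS9, a lectin that hands glycoproteins to the ligase, was at 165, 161, 123 and 161 FPKM in WT cells and at 133, 95.9, 109 and 89.7 FPKM in BR cells. Its lowest WT library lay below replicate 1 of BR vehicle (log2 fold change -0.53 ± 0.16, edgeR adjusted p = 0.196). EDEM2, which trims mannose from misfolded glycoproteins, differed by -0.54 ± 0.18. SYVN1 and SEL1L, the ubiquitin ligase HRD1 and its partner, had replicates as far apart as the lines. SYVN1 stood at 111, 96.9, 57.1 and 95.6 FPKM in WT cells and at 91.9, 44.2, 71.8 and 42.0 FPKM in BR cells, and SEL1L at 36.6 to 84.6 FPKM over all libraries.

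The sensors differed least, with a median log2 fold change of -0.07 over the 6. ERN1, which encodes IRE1 alpha, was at 56.1, 44.9, 49.1 and 46.9 FPKM in WT cells and at 44.6, 38.1, 37.97 and 37.1 FPKM in BR cells (log2 fold change -0.36 ± 0.12, edgeR adjusted p = 0.221). CREB3L2, a membrane-bound transcription factor of the ATF6 type, stood at 32.7, 36.1, 32.5 and 33.4 FPKM in WT cells and at 31.6, 18.7, 31.0 and 19.0 FPKM in BR cells. Its BR replicate 1 libraries were just below the lowest WT library, while the replicate 2 libraries were far below (log2 fold change -0.43 ± 0.19). ATF6 ranged from 37.9 to 51.0 FPKM in WT and from 40.0 to 48.7 FPKM in BR libraries, and EIF2AK3 (PERK) from 65.5 to 93.6 and from 66.3 to 97.1 FPKM. Neither of them, nor MBTPS1 and MBTPS2, had an unadjusted p under 0.05.

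All 6 translocation genes were below 0, and 4 had an unadjusted p under 0.05. SEC61B, a small subunit of the channel, had the smallest p of the 38. It was at 278, 295, 222 and 255 FPKM in WT cells and at 217, 131, 149.7 and 136 FPKM in BR cells; replicate 1 of BR vehicle came close to the lowest WT library (log2 fold change -0.75 ± 0.18, edgeR adjusted p = 0.121). SEC61A1, the channel itself, was at 305, 294, 279 and 307 FPKM in WT cells and at 274, 189, 263 and 168 FPKM in BR cells (log2 fold change -0.43 ± 0.17). SSR3, a subunit of the translocon-associated complex, did not overlap between the lines, with 221 to 277 FPKM in WT and 137 to 216 FPKM in BR libraries (log2 fold change -0.49 ± 0.16). SPCS2, of the signal peptidase, differed by -0.24 ± 0.11.

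**Figure D3:**
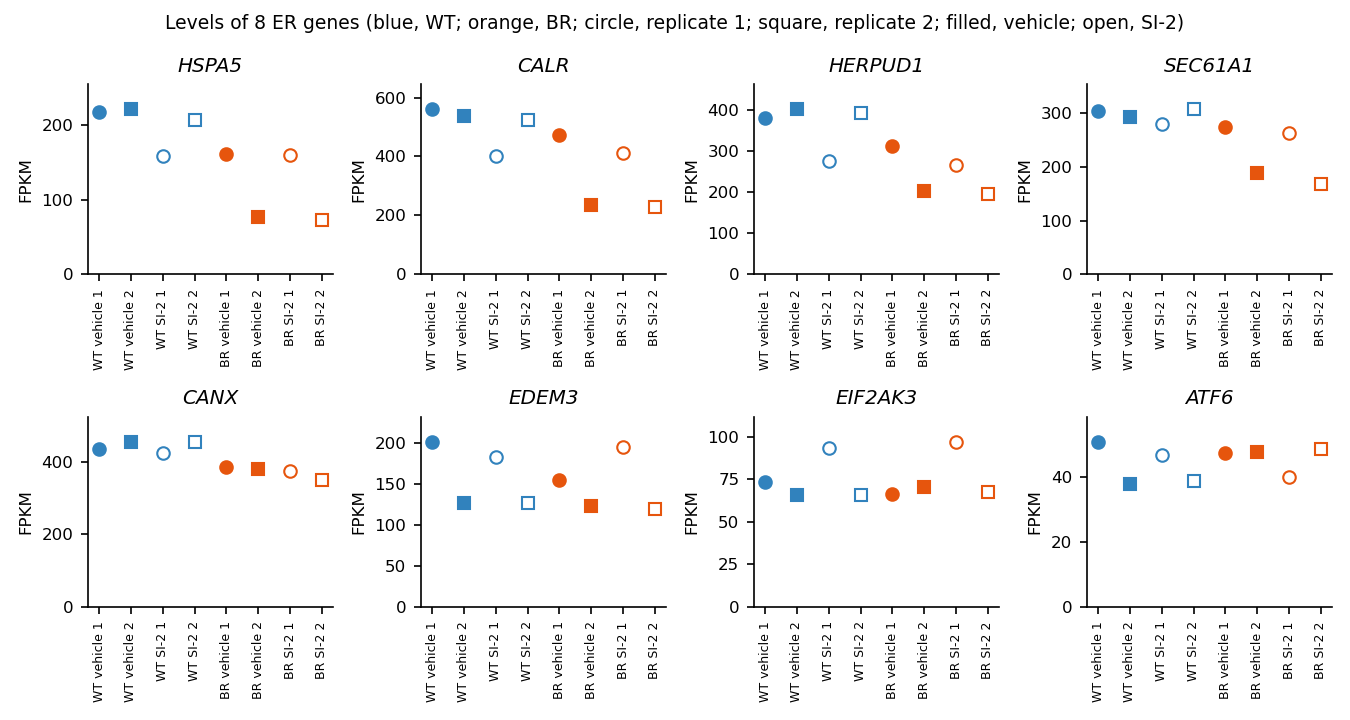
FPKM of 8 ER genes in each library, with WT in blue and BR in orange, replicate 1 as circles and replicate 2 as squares, and vehicle filled and SI-2 open. HSPA5, CALR, HERPUD1 and SEC61A1 drop in the BR squares, CANX is lower in all BR libraries, EDEM3 is lower in the squares of both lines, and EIF2AK3 and ATF6 follow neither pattern.

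Because the BR libraries split by replicate number, BR and WT cells were also compared within each number, a comparison chosen after these values had been seen. It has 2 libraries a side, 1 vehicle and 1 SI-2, in a single fit of 13896 genes. The 2 libraries of a side serve as its replicates, though the labels do not say whether they share a culture. Deviations of same-numbered libraries correlated at 0.436 between the 2 WT conditions and at 0.373 between the 2 BR conditions. The p-values thus measure the spread between a vehicle and an SI-2 library of 1 line and number, and may not cover that between cultures. Among the replicate 1 libraries, 0 of the 38 genes passed an adjusted p of 0.05 in edgeR or DESeq2. In edgeR 0.209% of all genes were called lower, and at so low a share this 0 is no result about the ER genes. At an unadjusted p under 0.05, 5 of the 38 were lower in edgeR, where 881 of all 13896 genes were. The median log2 fold change was -0.16. Among the replicate 2 libraries, 28 of the 38 were called lower and none higher, where 10.8% of all genes were called lower, and the median was -0.86. Both BR libraries lay below both WT libraries in 35 of the 38 genes in replicate 2, where 36.2% of genes did so, and in 6 of the 38 in replicate 1, where 18.5% did so. ATF6 went the other way in replicate 2, with both BR libraries above both WT libraries and a log2 fold change of 0.20. The count of 28 fell most without a replicate 2 library of WT vehicle (4), BR SI-2 (6) or WT SI-2 (8), when a side rests on 1 library assumed to vary like the others. The median then stayed between -0.94 and -0.81 over all omissions.

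Calls and p-values of this grouping, chosen after the values had been seen, describe the split and are no independent evidence of it. By role, the replicate 2 calls took in all 11 chaperones, all 3 disulphide isomerases and both lectin chaperones. They also took in 6 of 10 ERAD genes, 5 of 6 translocation genes and 1 of 6 sensors. HSPA5 showed the largest difference of the 38, with a log2 fold change of -1.59 ± 0.15 in replicate 2 (edgeR adjusted p = 0.00102) and -0.21 in replicate 1. CALR differed by -1.27 ± 0.16 in replicate 2 (edgeR adjusted p = 0.00226), MANF by -1.35 ± 0.26 (edgeR adjusted p = 0.0101) and HERPUD1 by -1.08 ± 0.15 (edgeR adjusted p = 0.00359). SEC61A1 differed by -0.83 ± 0.10 (edgeR adjusted p = 0.00184), and the only sensor called, CREB3L2, by -0.96 ± 0.08 with the smallest adjusted p of the 38 (0.0007 in edgeR). The 10 genes not called in replicate 2 were ERN1, SPCS2, DERL3, EDEM3, DERL1, DERL2, EIF2AK3, ATF6, MBTPS1 and MBTPS2. ERN1 and SPCS2 had adjusted p-values of 0.0529 and 0.0633 in edgeR.

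The difference between the replicate numbers was fitted as well, on a grouping chosen because the BR libraries had been seen to split this way, so its values describe that split and are no independent evidence of it. In 7 of the 38 genes (CREB3L2, HSPA5, SEC61A1, CALR, HYOU1, EDEM1 and HERPUD1) the BR difference was larger in replicate 2 than in replicate 1 at an edgeR adjusted p under 0.05, where 3.62% of all genes were called in that direction; DESeq2 called 18, among 1397 genes in all. Without any one replicate 2 library this count fell to 0, without replicate 1 of WT SI-2 or BR vehicle to 3 and 4, while without replicate 1 of WT vehicle it rose to 21. Within BR cells, 20 of the 38 genes were called lower in replicate 2 than in replicate 1 and none higher, where 5.77% of genes were called lower, and the median log2 difference was -0.64. This count fell to 0 without replicate 2 of BR SI-2, WT vehicle or WT SI-2, to 4 without replicate 2 of BR vehicle and to 12 without replicate 1 of BR vehicle. Within WT cells, 1 of the 38 was called lower in replicate 2 (EDEM3), where 4.38% of genes were, and the median was -0.07. The median of all genes was -0.01 within BR cells and 0.00 within WT cells. On normalised counts both BR replicate 2 libraries lay below the other 6 in 34 of the 38 genes, where 13.5% of genes did so.

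**Figure D4:**
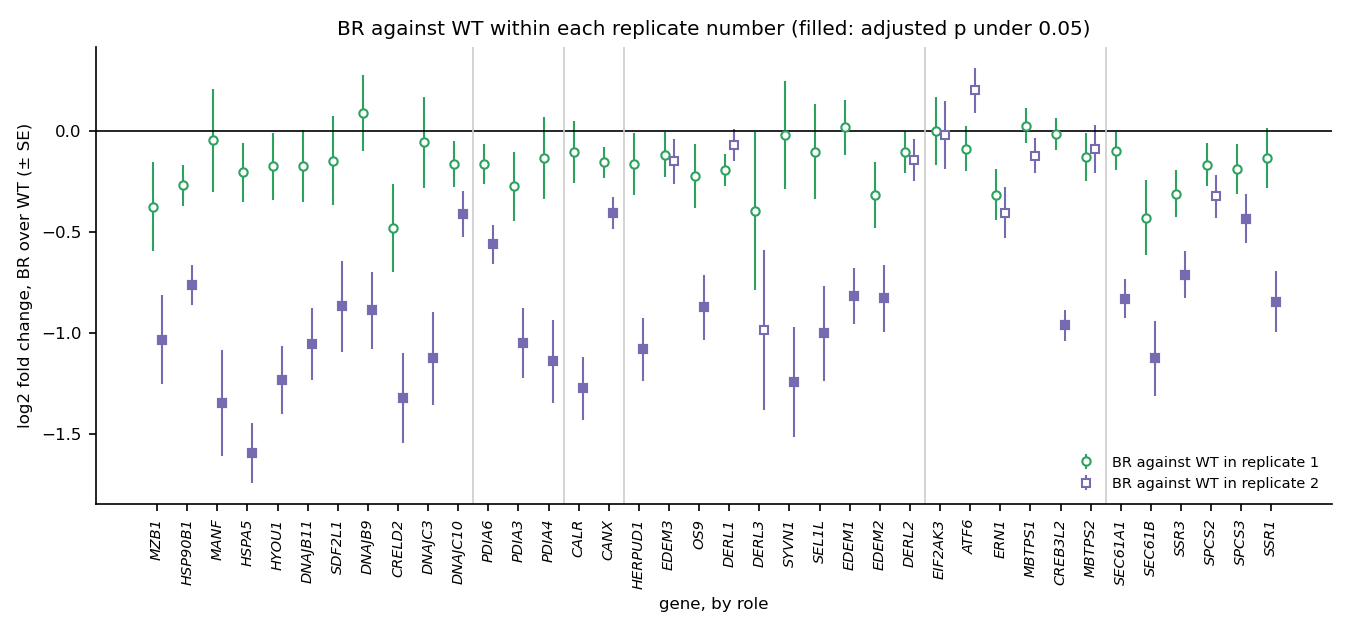
The log2 fold change of BR over WT with its SE for each ER gene, by role, among the replicate 1 libraries (green circles) and the replicate 2 libraries (purple squares), filled where the adjusted p was under 0.05. No circle and 28 squares are filled; the replicate 2 values reach -1.59 in HSPA5, and those of most sensors stay near 0.

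Promoter letters were set beside these values as a description. In replicate 2, the 9 genes with ERSE or ERSE-II letters had a median log2 fold change of -1.08, from -1.59 for HSPA5 to -0.41 for CANX. The 26 with a listed window but neither element had a median of -0.83. Outside the 38 genes, 24 tested genes held either element, and their median was -0.37, with 19 of 24 below 0, whereas all 11196 tested genes with a window had a median of 0.00. In replicate 1 the same medians were -0.16, -0.12, -0.02 and 0.00. The genes with these letters were therefore low in the same libraries as those without.

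EDEM3, a mannosidase of the same family as EDEM2, was lower in replicate 2 in both lines. Over all conditions, the replicate 2 libraries were compared with the replicate 1 libraries, 4 against 4. EDEM3 was at 202, 127, 183 and 127 FPKM in WT cells and at 155, 122, 195 and 119 FPKM in BR cells, so that all replicate 2 libraries lay below all replicate 1 libraries. It was the only gene of the 38 called in edgeR (log2 difference -0.61 ± 0.10, adjusted p = 0.0385), where 0.925% of all genes were called, and it was not called when any single library was left out. At an unadjusted p under 0.05, 8 of the 38 were lower in replicate 2, where 8.28% of all genes were, and MBTPS2 was higher. MBTPS1, which makes the first cut in ATF6, had a narrow range in each number, 33.6 to 34.9 FPKM in replicate 1 and 27.6 to 29.7 FPKM in replicate 2 (log2 difference -0.30 ± 0.08, edgeR adjusted p = 0.105). DERL2, a channel component of ERAD, differed by -0.33 ± 0.09. EIF2AK3 was at 73.5, 65.5, 93.6 and 65.7 FPKM in WT cells and at 66.3, 70.5, 97.1 and 67.3 FPKM in BR cells, highest in replicate 1 of both SI-2 conditions (log2 difference -0.34 ± 0.12, edgeR adjusted p = 0.1955). The median of the 38 was -0.30, with 36 below 0.

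Splicing of XBP1 reports the activity of IRE1, and the deposited table per transcript lists its spliced and unspliced mRNAs separately. The spliced form took 12.4% and 15.5% of the estimated counts of both forms in WT vehicle, 12.95% and 10.3% in WT SI-2, 19.3% and 8.04% for BR vehicle and 19.9% and 6.34% in BR SI-2 libraries. Its estimated counts were 2240 and 3050 in WT vehicle, 1977 and 1934 in WT SI-2, 3175 and 1063 for BR vehicle and 3506 and 764 in BR SI-2. The BR libraries thus held the 2 highest and the 2 lowest shares of the 8, high in replicate 1 and low in replicate 2, and the WT libraries lay between them. The 95% Wilson intervals were 18.7 to 19.9% and 19.3 to 20.5% in BR replicate 1, and 7.59 to 8.52% and 5.91 to 6.78% in BR replicate 2. They take every estimated count of both forms as informative, so they are too narrow even for counting error and leave out the spread between libraries. The mean share was 13.4 ± 7.20% in BR and 12.8 ± 2.12% in WT cells (SD, n = 4 each), and the difference of 0.605 percentage points was within the spread (exact permutation test, two-sided, p = 0.886; the smallest p this design allows is 0.0286). With SI-2 the mean share was 12.4 ± 5.70%, against 13.8 ± 4.77% with vehicle (exact permutation test, two-sided, p = 0.714). Reads that do not cross the excised segment fit both mRNAs, so each share is an estimate of the authors' counting step.

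**Figure D5:**
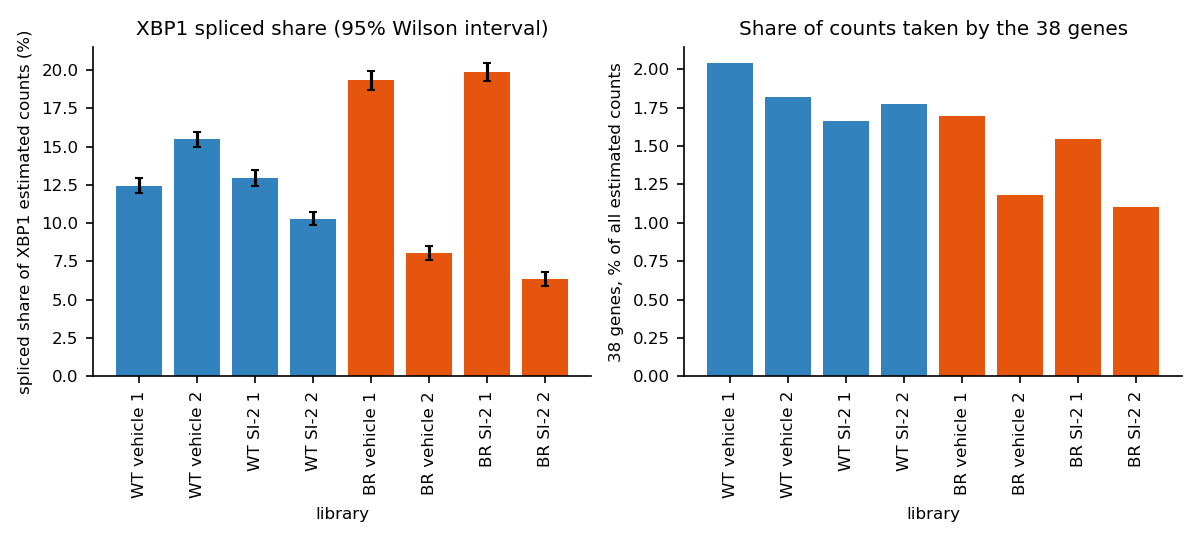
Left, the spliced share of XBP1 estimated counts in each library with its 95% Wilson interval, which is too narrow even for counting error. Right, the share of all estimated counts taken by the 38 ER genes. WT libraries are blue and BR libraries orange. The spliced share is near 20% in both BR replicate 1 libraries and under 8.1% in both BR replicate 2 libraries, where the ER genes also take the smallest share of counts, 1.18% and 1.10%.

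SI-2 was compared with vehicle over both lines, to ask whether the inhibitor moved the ER genes. None of the 38 had an unadjusted p under 0.05 in edgeR, where 2.22% of all genes did, and DESeq2 called 0. Neither fit had a term for line, so differences between the lines added to the spread and made a call less likely. The log2 fold change was below 0 for 35 of the 38, with a median of -0.19 against 0.00 for all genes. DERL3, an ERAD gene of secretory cells, had the largest fold change. It was at 153, 95.1, 81.1 and 90 FPKM in WT cells and at 108, 63.6, 65.5 and 56.0 FPKM in BR cells. Both WT SI-2 libraries lay below both WT vehicle libraries, while in BR cells the groups overlapped (log2 fold change -0.67 ± 0.31, edgeR adjusted p = 0.999). MANF differed by -0.48 ± 0.39, SEL1L by -0.42 ± 0.26 and SYVN1 by -0.39 ± 0.31, each with an edgeR adjusted p of 0.999. For no gene of the 38 did the 4 SI-2 libraries lie apart from the 4 vehicle libraries. The share of all genes that did so is not given here, and chance alone would put all 4 lower in 1.43% of genes. Neither this absence nor the lack of a gene of the 38 at an unadjusted p under 0.05 is a result about the ER genes.

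The 4 conditions were then compared pair by pair in a single fit of 13896 genes. Under vehicle, BR cells had a log2 fold change below 0 in 37 of the 38 genes, with a median of -0.48. Of these, 4 genes had an unadjusted p under 0.05, where 2.36% of all genes were lower at that level. They were CRELD2 (-0.88 ± 0.30), SEC61B (-0.74 ± 0.25), MZB1 (-0.69 ± 0.27) and OS9 (-0.53 ± 0.23), each with an edgeR adjusted p of 0.967. Under SI-2 the median was -0.43, and 6 genes had an unadjusted p under 0.05 (the same 4 with CANX and ERN1), where 2.53% of all genes were lower at that level; their edgeR adjusted p was 0.998. In BR cells alone, SI-2 against vehicle had a median of -0.19, which turned positive without replicate 1 of BR vehicle (0.17) or replicate 2 of BR SI-2 (0.07), and no gene of the 38 at an unadjusted p under 0.05, where 1.2% of all genes were. The largest of these fold changes were DERL3 at -0.68 ± 0.37, SEL1L at -0.45 ± 0.33, and MANF and MZB1 at -0.36 ± 0.57 and -0.36 ± 0.27. The signs of SEL1L, MANF and MZB1 turned positive without replicate 1 of BR vehicle (0.18, 0.79 and 0.027). In WT cells alone the median was -0.22, again with no gene at that level, where 0.533% of all genes were. For the interaction of SI-2 and line, none of the 38 genes had an unadjusted p under 0.05, where 0.533% of all genes did. The median difference was 0.03. At such low shares over all genes, the lack of a gene at that level is no result about the ER genes. This holds for the interaction and for SI-2 in either line. These comparisons share libraries and are not independent of each other.

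Other genes of the pathway came from a list of 107 ER genes, of which 105 were tested. In BR against WT cells over both treatments, 36 of the 105 were lower at an unadjusted p under 0.05 and none was higher, where 8.08% of all genes were lower, with a median of -0.23, and none passed the adjusted threshold in edgeR (smallest adjusted p = 0.0634). Within replicate 1, 18 were lower and 1 higher at an unadjusted p under 0.05, where 881 of all 13896 genes were lower, and 0 were called in edgeR. Within replicate 2, 52 were called lower and 2 higher, where 10.8% of all genes were called lower. SIL1, an exchange factor of BiP, was at 24.2, 29.0, 22.0 and 30.7 FPKM in WT cells and at 17.95, 17.8, 16.7 and 16.4 FPKM in BR cells (log2 fold change -0.65 ± 0.12). KDELR3, a receptor that retrieves ER proteins, was at 27.8, 29.6, 20.6 and 29.0 FPKM in WT cells and at 17.9, 16.3, 15.4 and 15.2 FPKM in BR cells (log2 fold change -0.73 ± 0.14). In both genes the FPKM values of the lines did not overlap and the BR replicates were close to each other. SIL1 differed by -0.40 in replicate 1 (edgeR adjusted p = 0.189) and by -0.89 in replicate 2 (edgeR adjusted p = 0.0022). SELENOM differed by -1.07 ± 0.20, SEC11C of the signal peptidase by -0.50 ± 0.10, P4HB, the classical disulphide isomerase, by -0.50 ± 0.11, and TRIB3, a target of ATF4, by -0.75 ± 0.18, with edgeR adjusted p-values from 0.0634 to 0.118. The difference of TRIB3 was larger in replicate 2 than in replicate 1, by -0.94 (edgeR adjusted p = 0.0247). The comparisons by number were chosen after the split had been seen, so they only describe it.

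For 3 transcription factors of the response, the BR difference in replicate 2 minus that in replicate 1 was fitted too. It was -0.71 for XBP1 (edgeR adjusted p = 0.0341), -1.06 for ATF4 (edgeR adjusted p = 0.0687) and -0.36 for DDIT3 (edgeR adjusted p = 0.486). The grouping by number was chosen after the split had been seen, so these values describe the split and are no independent evidence of it. XBP1 as a whole gene was at 553, 596, 467 and 568 FPKM in WT cells and at 499, 400.0, 526 and 366 FPKM in BR cells. Its log2 fold change of BR over WT was -0.68 ± 0.11 in replicate 2 (edgeR adjusted p = 0.00456) and 0.02 ± 0.11 in replicate 1. ATF4, whose protein PERK signalling raises, was at 771, 936, 530 and 902 FPKM in WT cells and at 772, 476, 522 and 457 FPKM in BR cells. Its log2 fold change was -1.05 ± 0.21 in replicate 2 (edgeR adjusted p = 0.012) and 0.01 ± 0.21 in replicate 1. These are mRNA levels, and PERK signalling was not measured. DDIT3, which encodes CHOP, was at 101, 77.95, 105 and 78.8 FPKM in WT cells and at 67.7, 67.2, 124 and 61.5 FPKM in BR cells, and was called in neither replicate (-0.44 ± 0.21 in replicate 2, edgeR adjusted p = 0.172). LMAN1, a cargo receptor for export to the Golgi, was at 133, 139.9, 90.7 and 127 FPKM in WT cells and at 105, 46.7, 91.6 and 46.0 FPKM in BR cells (-1.61 ± 0.18 in replicate 2, edgeR adjusted p = 0.00156). JCHAIN, the joining chain of secreted polymeric antibody, was at 3819, 2482, 3904 and 2456 FPKM in WT cells. In BR cells it was at 3615, 3600, 3228 and 3726 FPKM, above WT cells in replicate 2 and below them in replicate 1. Of the other plasma cell markers above 1 FPKM, XBP1, IRF4, CD38, PRDM1 and POU2AF1 were lower in both BR replicate 2 libraries than in both BR replicate 1 libraries. SDC1 was higher there, and TNFRSF17 overlapped. Within WT cells, IRF4, CD38, PRDM1 and POU2AF1 were likewise lower in both replicate 2 libraries, and SDC1 was likewise higher. These markers therefore split by number in both lines and are not particular to BR cells. TNFRSF17 was lower in both WT replicate 2 libraries, while XBP1 was higher there. What set the BR replicate 2 libraries apart was not tested, and within BR cells the replicate number cannot be told apart from any unlabelled difference between cultures or preparations.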

How the data were processed

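The authors sequenced the libraries on the BGISEQ-500 platform and removed low-quality reads; their processing notes name BWA, Bowtie2, RSEM and hg19, with no role or version. They deposited estimated counts and FPKM values per gene and per transcript; 8 columns of condition averages and the tables of the authors' own comparisons (fold changes and p-values) were not used. The deposited estimated counts were rounded, filtered with filterByExpr, scaled by TMM and tested with the quasi-likelihood test of edgeR 4.0.16 (Benjamini-Hochberg over all genes, threshold 0.05) in fits of 2 groups (13520 genes) or 4 conditions (13896 genes); each standard error was derived from the fold change and the F value of its test. Levels are the authors' FPKM values. DESeq2 1.42.0 and limma 3.58.1 on log2(FPKM + 1) were alternatives.

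The members and lists were chosen with earlier results of these data known, and the fit by line and replicate number, the promoter search and its medians were set after the values had been seen. Within each comparison, statistics are given for members with an unadjusted p under 0.05, filled by the largest fold changes to 10 (BR against WT, both treatments) or 4 (SI-2 in both lines, BR under vehicle, SI-2 in BR); among replicate-number comparisons, which the rule did not foresee, members were picked by role. Other ER genes are those of smallest p, with XBP1, ATF4 and DDIT3; LMAN1 is among them in replicate 2. Promoter windows are RefSeq's (GRCh38.p14), another build than hg19, so no file coordinate was used. R 4.3.3, Python 3.11.15, pandas 2.3.3, scipy and matplotlib 3.10.9 were used. Protein sequences were not used here.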

Additional observations from a re-analysis of the deposited data

Results flagged for a closer look

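Each of the 38 genes was examined in the 4 libraries of each line and of each treatment, 156 groups with XBP1 splicing, for a library set apart from the other 3. A library stood apart in 11 of the 156 groups, where chance gives about 1 in 20. The count is thus near what chance gives, and the libraries below are listed as a description only. In the WT libraries, replicate 1 of WT SI-2 was low for HYOU1 (146.9 FPKM, the next at 196.4) and OS9 (122.9, next 160.7), and replicate 1 of WT vehicle was high for SSR1 (79.93, next 61.43). In the BR libraries, replicate 1 of BR SI-2 was high for DERL1 (116.8, next 114.8) and EIF2AK3 (97.09, next 70.53) and low for ATF6 (39.98, next 47.52), and replicate 1 of BR vehicle was high for ERN1 (44.6, next 38.05). Across the vehicle libraries, DERL1 was high in replicate 1 of WT (135.7 FPKM, next 114.8). Across the SI-2 libraries, DERL1 was high in replicate 1 of WT (133.8, next 117.6), and CREB3L2 (18.96, next 31.01) and SSR1 (34.29, next 57.53) were low in replicate 2 of BR.

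For 7 of the 38 genes the BR difference was larger in replicate 2 than in replicate 1 in edgeR, where 3.62% of all genes were called in that direction. This comparison was chosen after the BR libraries had been seen to split by number, so it describes that split, and the count fell to 0 without any one replicate 2 library. Replicate 2 minus replicate 1, on the log2 scale, was -1.389 for HSPA5 (adjusted p = 0.0159), -1.169 for CALR (adjusted p = 0.0259), -1.056 for HYOU1 (adjusted p = 0.039), -0.9467 for CREB3L2 (adjusted p = 0.011), -0.9165 for HERPUD1 (adjusted p = 0.0436), -0.835 for EDEM1 (adjusted p = 0.0425) and -0.7299 for SEC61A1 (adjusted p = 0.0253).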

How the results depend on the processing

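DESeq2 called more genes than edgeR. In BR against WT cells over both treatments it called 414 of all genes and 3 of the 38, where terms for condition left 18. In replicate 2 against replicate 1 over all conditions it called 765 and 3, where limma called 62 and condition terms left 0 and 0. Under vehicle, BR against WT gave 25 calls in DESeq2, 3 without a count filter and 1 in limma or with only the libraries compared; under SI-2 these were 31 in DESeq2, 0 in limma and 3 with only the libraries compared. DESeq2 called 3 genes for SI-2 in BR and 195 for BR against WT in replicate 1. For the difference between replicates it called 1397 genes and 18 of the 38. Between replicates in WT it called 2 of the 38, where edgeR called 1 of the 38 and 1232 of all 13896 genes. With the replicate block, BR against WT gave 155 calls over both treatments and 1 under vehicle, none of them among the 38; deviations of same-numbered libraries correlated from -0.121 to 0.436 over the 6 pairs of conditions and were above 0.1 in 5 of them, and since the labels name nothing that same-numbered libraries share, the number was not taken as a pairing.

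Leaving out each library in turn moved BR against WT from 21 to 125 genes and up to 2 of the 38, with CRELD2 and SEC61B called without replicate 1 of BR vehicle, and replicate 2 against replicate 1 from 0 to 93 genes and to 0 of the 38. The median of the 38 ranged from -0.92 to -0.12 under vehicle and from -0.84 to -0.16 under SI-2, where 0 to 67 genes were called. For SI-2 in BR, 0 to 67 genes were called, and the median ranged from -0.55 to 0.17, turning positive without replicate 1 of BR vehicle and without replicate 2 of BR SI-2 (0.07). SEL1L then ranged from -0.90 to 0.18, MANF from -1.26 to 0.79 (0.19 without replicate 2 of BR SI-2) and MZB1 from -0.67 to 0.027. The interaction median ranged from -0.31 to 0.43, with -0.07, -0.08 and -0.27 among the values below 0. BR against WT in replicate 1 gave 1 to 46 genes and a median from -0.39 to 0.0051, and in replicate 2 gave 221 to 3432 genes and 4 to 31 of the 38. Replicate 2 against replicate 1 gave 0 to 1807 genes and 0 to 28 of the 38 in BR, and 1 to 1814 genes, 0 to 3 of the 38 and a median from -0.26 to 0.16 in WT. The difference between replicates gave 0 to 1748 genes and 0 to 21 of the 38. The XBP1 spliced share differed by -1.56 to 2.96 points between lines (-0.22 and -1.37 among them) and by -3.96 to 0.56 points with SI-2 (0.38 among them). The cause of these shifts was not tested beyond the smaller number of libraries in each omission. What depth alone limits was not tested.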
